A study of Homo sapiens with 6 samples.

Results

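The genes described here make fatty acids from acetyl units, lengthen them and place double bonds in them. They are ACLY, ACSS2, ACACA, FASN, SCD, FADS1, FADS2, ELOVL5, ELOVL6 and the regulator SREBF1, 10 of the 60671 gene rows in each count file, taken by symbol. All 10 passed the expression filter that left 20734 genes to test. They were followed in NCI-H69, an established human line of neuroendocrine small cell lung cancer, labelled wild type. RNA was sequenced from cells kept for 48 h with GNF5, an allosteric inhibitor of the ABL kinases, or with its solvent DMSO, with 3 libraries in each group. The sample labels give a GNF5 dose of 20 µM, while the treatment protocol gives the same figure in millimolar, and this conflict was not settled. Both groups are the same line in the same serum-containing medium, so the comparison speaks for a single line and a single dose and time.

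Fatty acid synthesis starts in the cytosol. ACLY splits citrate exported from mitochondria into acetyl-CoA, ACSS2 makes acetyl-CoA from acetate, ACACA carboxylates it to malonyl-CoA in the committed step, and FASN builds palmitate. ELOVL6 and ELOVL5 lengthen chains in the endoplasmic reticulum, SCD puts the double bond into saturated chains to give oleate and palmitoleate, and FADS2 and FADS1 act in turn on the route to arachidonate and other polyunsaturated chains. SREBF1 encodes the membrane-bound factor SREBP1, which activates many of these genes after it is escorted to the Golgi by SCAP and cut there, and which INSIG proteins hold back when sterols are plentiful. Proliferating tumour cells are known to rely on this route for membrane lipids.

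Library totals ran from 46148701 to 60697602 counts, and the neuroendocrine genes INSM1, CHGA and SYP had means of 1403, 247 and 182 counts per 1000000 counts (CPM) with DMSO and 1464, 254 and 150.4 with GNF5. The 8 markers of neuroendocrine small cell lung cancer summed to 4802 to 4968 CPM with DMSO and 6350.1 to 6509 with GNF5, with 3 higher (MYCN, NCAM1 and DLL3) and 2 lower (SYP and NEUROD1, the latter at 1.63 CPM with DMSO). The 6 adipocyte markers (ADIPOQ, LEP, PLIN1, FABP4, CIDEC and LPL) summed to 2.41 to 3.09 CPM with DMSO and 3.3 to 3.99 with GNF5, with LEP at 0 in all libraries, and the 6 hepatocyte markers to 2.16 to 2.62 and 2.55 to 2.96 with APOB at 0. Sums were 120 to 126 against 64.8 to 72 CPM for the 6 fibroblast markers, nearly all from COL1A2, with COL3A1 at 0. They were 4.6 to 4.88 against 3.18 to 4.05 for the 6 leukocyte markers, with CD3E and TYROBP at 0, and 23 to 24.1 against 13.8 to 16.3 for the 6 lung alveolar markers, mostly NKX2-1, with SFTPB at 0. The part of these sums in the results below was not tested. ABL1 and ABL2, whose proteins GNF5 inhibits, changed little in RNA (log2 fold changes 0.09 ± 0.032 and 0.24 ± 0.047). Below, CPM values are scaled by TMM, a change is a log2 fold change of GNF5 against DMSO with its standard error (SE), levels are means with the SD over 3 libraries, and "rose" and "fell" mark genes with an adjusted p under 0.05 in edgeR's quasi-likelihood test.

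All 10 genes fell with GNF5 and 0 rose, and 2 of them, FADS2 and SCD, fell at least 2-fold. The median log2 fold change of the 10 was -0.85, against 0.01 over all tested genes. This contrast moved much of the transcriptome: 30.7% of all tested genes were called lower and 31% higher, and 6.69% were called lower by at least 2-fold. The 3 GNF5 values lay below the 3 DMSO values for 10 of the 10 genes, as they did for 32.8% of all tested genes. Summed over the 10 genes, the libraries held 5161, 5281 and 5296 CPM with DMSO and 2441, 2529 and 2525 CPM with GNF5. The groups were far apart in this sum and tight within themselves. SCD and FADS2 made up 48.3% of the drop. In bulk RNA, fewer cells with a transcript and less of it per cell cannot be told apart.

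**Figure D1:**
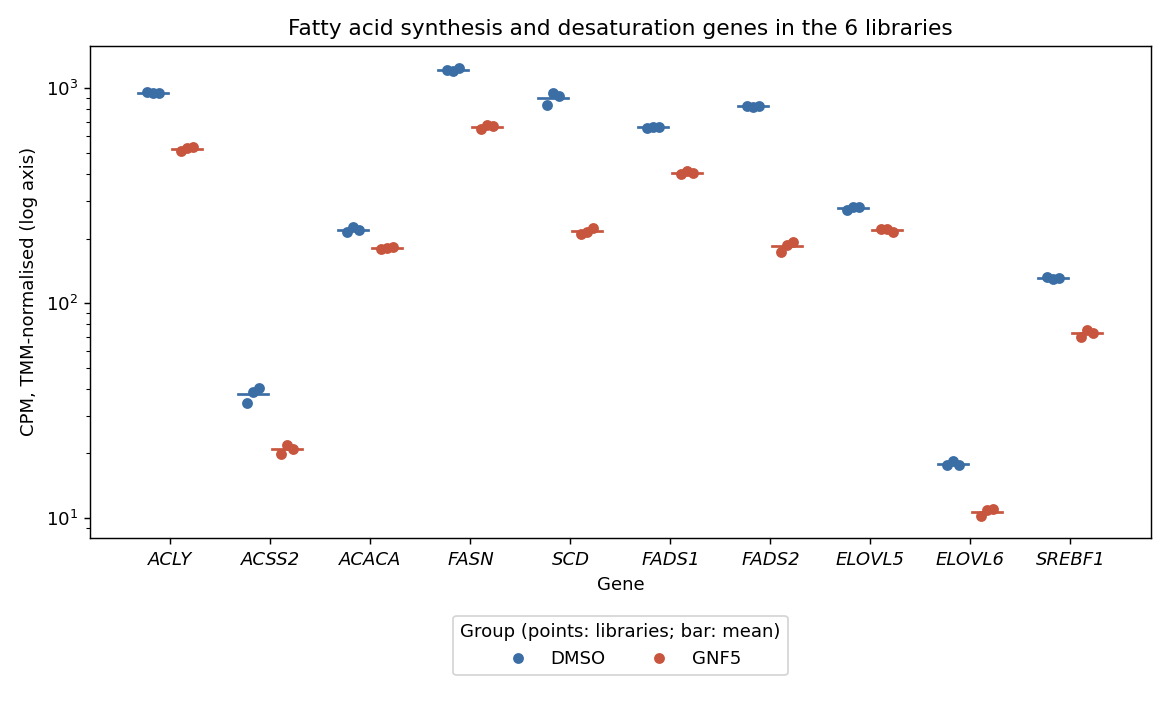
CPM of each gene (log axis) in the 3 DMSO libraries (blue) and the 3 GNF5 libraries (red), with points for libraries and bars for group means. Each gene's red points lie below its blue points, with the widest gaps at SCD (905 against 216 CPM) and FADS2 (824 against 185 CPM).

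The enzymes that supply and use acetyl-CoA fell by similar amounts, apart from ACACA. FASN (ENSG00000169710, chromosome 17, 82078338 to 82098294, GRCh38) had 1216, 1209 and 1239 CPM with DMSO and 644, 677 and 668 with GNF5. It had the highest CPM of the 10 in either group, and its groups lay well apart. Its log2 fold change was -0.88 ± 0.032, or 54.3% of the DMSO level (edgeR adjusted p = 2.63e-19). ACLY (ENSG00000131473, chromosome 17, 41866917 to 41930542) had 962, 949 and 953 CPM with DMSO and 511, 528 and 531 with GNF5. The libraries of a group differed little, and the change was -0.87 ± 0.032 (edgeR adjusted p = 2.23e-19). ACSS2, the acetate-using enzyme (ENSG00000131069, chromosome 20, 34872146 to 34927962), was far less abundant, at 34.4, 38.5 and 40.2 CPM with DMSO and 19.9, 21.8 and 21 with GNF5. DMSO replicate 1 was the lowest of its group but still above every GNF5 library, and the change was -0.85 ± 0.057.

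ACACA, the committed step, moved least of the 10. This gene (ENSG00000278540, chromosome 17, 37084992 to 37406836) had 214, 227 and 219 CPM with DMSO and 179.5, 182 and 183 with GNF5. The gap between the groups was small but wider than the spread within either. ACACA kept 82.5% of its DMSO level, a change of -0.28 ± 0.033 (edgeR adjusted p = 3.1e-08), and 28.7% of all tested genes had a lower log2 fold change. FASN, downstream of it, had a lower change than all but 8.56% of tested genes.

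The desaturases fell unequally. SCD (ENSG00000099194, chromosome 10, 100347233 to 100364826) had 839, 953 and 924 CPM with DMSO and 210.4, 214 and 223 with GNF5. DMSO replicate 1 was low for its group, yet every DMSO library held more than 3 times the CPM of any GNF5 library. The change was -2.07 ± 0.040, which is 4.19-fold lower (edgeR adjusted p = 7.59e-25). FADS2 (ENSG00000134824, chromosome 11, 61792980 to 61867354) had 824, 817 and 831 CPM with DMSO and 173, 187 and 193 with GNF5. Its DMSO values were nearly equal, and its change of -2.16 ± 0.037, or 4.46-fold lower, was the lowest of the 10 (edgeR adjusted p = 1.1e-26). Only 1.21% of tested genes had a lower log2 fold change than FADS2, and 1.38% a lower one than SCD. FADS1 (ENSG00000149485, chromosome 11, 61799627 to 61829318), which acts after FADS2, had 652, 659 and 661 CPM with DMSO and 399, 411 and 406 with GNF5. Its groups did not overlap either, but the change was -0.70 ± 0.031, leaving 61.7% of the DMSO level.

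FADS1 and FADS2 lie on opposite strands of chromosome 11, and the counted gene model of FADS1 lies within that of FADS2. Their gene models share 490 exon bases on opposite strands, which is 4.79% of the exon bases of FADS1 and 4.64% of those of FADS2. The counts were made by strand, so this overlap is separated only as well as the libraries keep strand. FADS2 also shares 49 exon bases on its own strand with FEN1, 0.464% of its exon bases, and reads there were left out of both.

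The sequences before the starts of SCD, FADS2 and FADS1 are shown because the first pair fell most and the last pair are neighbours that fell by different amounts. RefSeq promoter windows (GRCh38.p14) were matched by symbol for 9 of the 10 genes, all but FASN, and only the 250 bases before each start are used here. The first window listed for each symbol was used, and other starts of these genes were not examined. A window used here may therefore belong to an alternative start and not to the main promoter of its gene. The counted FADS2 model begins well before the start used here, at 61792980. The RefSeq starts used for FADS1 and FADS2 are 800 bases apart, and a transcript from either runs past the other. This layout holds for these 2 starts only. Capitals mark the CCAAT box, bound by the factor NF-Y, on either strand (CCAAT or ATTGG). Each is written 5′ to 3′ along the gene's own strand, for SCD at chr10:100346983-100347232 (plus strand), FADS2 at chr11:61815953-61816202 (plus strand) and FADS1 at chr11:61817004-61817253 (minus strand).
SCD: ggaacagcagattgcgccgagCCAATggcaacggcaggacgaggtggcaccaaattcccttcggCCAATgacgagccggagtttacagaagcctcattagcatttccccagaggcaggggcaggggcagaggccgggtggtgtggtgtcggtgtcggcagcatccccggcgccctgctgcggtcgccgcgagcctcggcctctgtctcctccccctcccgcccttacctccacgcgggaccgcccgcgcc
FADS2: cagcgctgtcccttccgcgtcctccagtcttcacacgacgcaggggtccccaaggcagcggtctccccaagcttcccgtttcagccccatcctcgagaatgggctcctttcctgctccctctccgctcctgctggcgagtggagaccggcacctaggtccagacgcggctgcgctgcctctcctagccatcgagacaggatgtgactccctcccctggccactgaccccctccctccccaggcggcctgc
FADS1: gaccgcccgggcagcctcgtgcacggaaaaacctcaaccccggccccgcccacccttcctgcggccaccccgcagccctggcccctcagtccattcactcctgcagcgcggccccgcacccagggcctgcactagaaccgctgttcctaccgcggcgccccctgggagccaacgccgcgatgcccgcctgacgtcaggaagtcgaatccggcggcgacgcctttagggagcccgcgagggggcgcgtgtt
The SCD window held 2 CCAAT boxes, at bases -229 to -225 and -186 to -182 counted from the start. The windows used for FADS2 and FADS1 held none.

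Over all 9 windows, a CCAAT box was found in 4 (SCD, ACLY, ELOVL5 and ACSS2), against 32.0% of the 35116 RefSeq promoters of the same length. The sterol regulatory element, searched as TCACNCCAC on both strands, was in 0 of the 9 windows, in 0 of the 15 windows found for the cholesterol synthesis genes and in 0.883% of all promoters. An E-box, CACGTG, which reads the same on both strands, was in 1 window, that of ELOVL5, and in 6.34% of all promoters. A GC box, GGGCGG on either strand, was in 7 of the 9 and in 42.6% of all promoters. In ACACA 4 of its 5 GC box matches overlap one another, and the other kinds of match did not overlap. An exact search misses elements that differ by a letter, so 0 matches does not show that a window lacks such an element. These letters also say nothing of sites outside the window.

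The elongases fell less than the desaturases SCD and FADS2. ELOVL6 (ENSG00000170522, chromosome 4, 110045846 to 110199199), which extends palmitate to stearate, was the least abundant of the 10 in CPM, at 17.7, 18.4 and 17.7 with DMSO and 10.3, 10.9 and 11 with GNF5. The groups lay apart, and its change was -0.74 ± 0.067 (edgeR adjusted p = 1.27e-10). ELOVL5 (ENSG00000012660, chromosome 6, 53267398 to 53349179), which extends polyunsaturated chains, had 272, 281 and 280.0 CPM with DMSO and 223, 222 and 215 with GNF5. It fell by a small step that still exceeded the spread, with a change of -0.34 ± 0.032, or 79.2% of the DMSO level (edgeR adjusted p = 4.15e-10), while 25.4% of all tested genes had a lower change.

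The regulator fell by about as much as FASN, ACLY and ACSS2. SREBF1 (ENSG00000072310, chromosome 17, 17810399 to 17837011) had 132, 129 and 131 CPM with DMSO and 69.9, 74.8 and 73 with GNF5. The spread within a group was small beside the gap, and the change was -0.85 ± 0.037 (edgeR adjusted p = 1.24e-17). The gene gives SREBP1 transcripts from alternative first exons, and counts per gene do not separate them. Its exons share 556 bases on the opposite strand with RAI1, 6.75% of the exon bases of SREBF1.

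Levels can be compared between genes only per exon length, here in TMM-scaled counts per 1000 exon bases and 1000000 counts (RPKM). With DMSO the order was ACLY (183 ± 1.25 RPKM), SCD (173 ± 11.3), FASN (131 ± 1.71), FADS2 (78.1 ± 0.661), ELOVL5 (72.8 ± 1.39), FADS1 (64.3 ± 0.468), ACACA (16.9 ± 0.512), SREBF1 (15.9 ± 0.21), ACSS2 (7.18 ± 0.569) and ELOVL6 (2.46 ± 0.0555). No neighbours in this order overlapped over the 3 libraries. With GNF5 it became ACLY (100.5 ± 2.04 RPKM), FASN (71.1 ± 1.8), ELOVL5 (57.7 ± 1.04), SCD (41.2 ± 1.23), FADS1 (39.6 ± 0.606), FADS2 (17.5 ± 0.968), ACACA (13.9 ± 0.137), SREBF1 (8.8 ± 0.302), ACSS2 (3.99 ± 0.181) and ELOVL6 (1.47 ± 0.0517). SCD and FADS1 overlapped in that group and no other neighbours did. SCD and FADS2 moved down the order, FASN, ELOVL5 and FADS1 moved up, and the rest kept their places. The exon lengths cover all annotated isoforms, so a gene that uses few of its exons is understated.

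Ratios of enzyme pairs within a library do not depend on the scaling. The ratio of SCD to FASN counts was 0.69, 0.788 and 0.746 with DMSO and 0.327, 0.317 and 0.334 with GNF5. The ratio of FADS2 to FADS1 counts was 1.26, 1.24 and 1.26 with DMSO and 0.435, 0.456 and 0.477 with GNF5, so FADS2 passed from the more to the less counted of the pair. The ratio of ELOVL6 to ELOVL5 counts was 0.0651, 0.0654 and 0.0632 with DMSO and 0.0462, 0.0491 and 0.051 with GNF5. In these pairs the groups did not overlap, and the ratio was lower with GNF5 by a log2 difference of -1.18, -1.46 and -0.41. The ratio of ACSS2 to ACLY counts overlapped, with 0.0357, 0.0406 and 0.0422 against 0.039, 0.0414 and 0.0396, a log2 difference of 0.02. A two-sided exact permutation test gave p = 0.1 for each of the former, the smallest that 3 against 3 libraries allow, and p = 0.9 for ACSS2 to ACLY (0.133 and 0.9 adjusted over the 4 ratios), so none could pass 0.05.

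**Figure D2:**
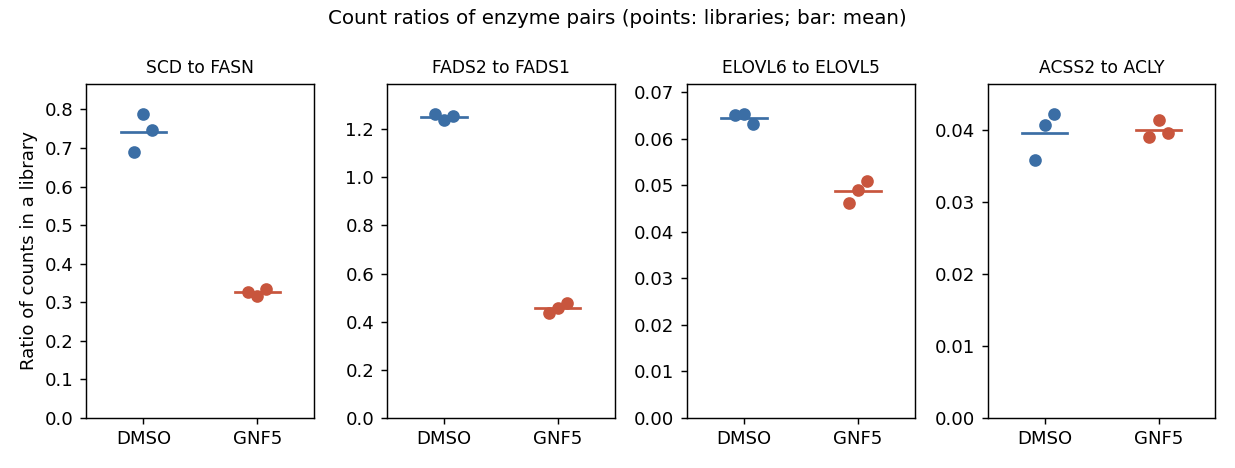
Ratio of the counts of 2 genes in each library (vertical axes from 0, points for libraries, bars for group means) for DMSO and GNF5. The ratios of SCD to FASN, FADS2 to FADS1 and ELOVL6 to ELOVL5 lie lower in each GNF5 library than in any DMSO library, while ACSS2 to ACLY overlaps (0.0357 to 0.0422 against 0.039 to 0.0414).

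Of 9 family partners of these enzymes 3 rose and 5 fell, where 31% of all tested genes were called higher and 30.7% lower. ACSS1, the mitochondrial acetyl-CoA synthetase, had 10.9, 11.6 and 12 CPM with DMSO and 31.8, 31.8 and 29.2 with GNF5 and rose (1.42 ± 0.061, edgeR adjusted p = 7.6e-18) where ACSS2 fell. FADS3, the third gene of the FADS cluster, had 16.7, 17 and 17.8 CPM with DMSO and 31.7, 32.1 and 32.2 with GNF5 and also rose (0.90 ± 0.052, edgeR adjusted p = 9.93e-15). ELOVL7 rose from 52.2 ± 0.724 to 91.7 ± 3.36 CPM. In each case the groups did not overlap. Other partners fell: ACACB, the carboxylase isoform tied to mitochondria, was low and fell from 2.81 ± 0.261 to 1.03 ± 0.241 CPM (-1.45 ± 0.178), SCD5 fell by far less than SCD (-0.41 ± 0.059), and SREBF2, which encodes the sterol-directed SREBP2, fell from 417 ± 1.97 to 261 ± 12.1 CPM (-0.68 ± 0.034). ELOVL2 fell (-0.30 ± 0.043). ELOVL1 passed narrowly (-0.13 ± 0.056, edgeR adjusted p = 0.0451) and lost its call in 7 of 13 alternatives, among them without DMSO replicate 2 or 3 or GNF5 replicate 2 or 3. ELOVL4 did not pass (0.06 ± 0.039).

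**Figure D3:**
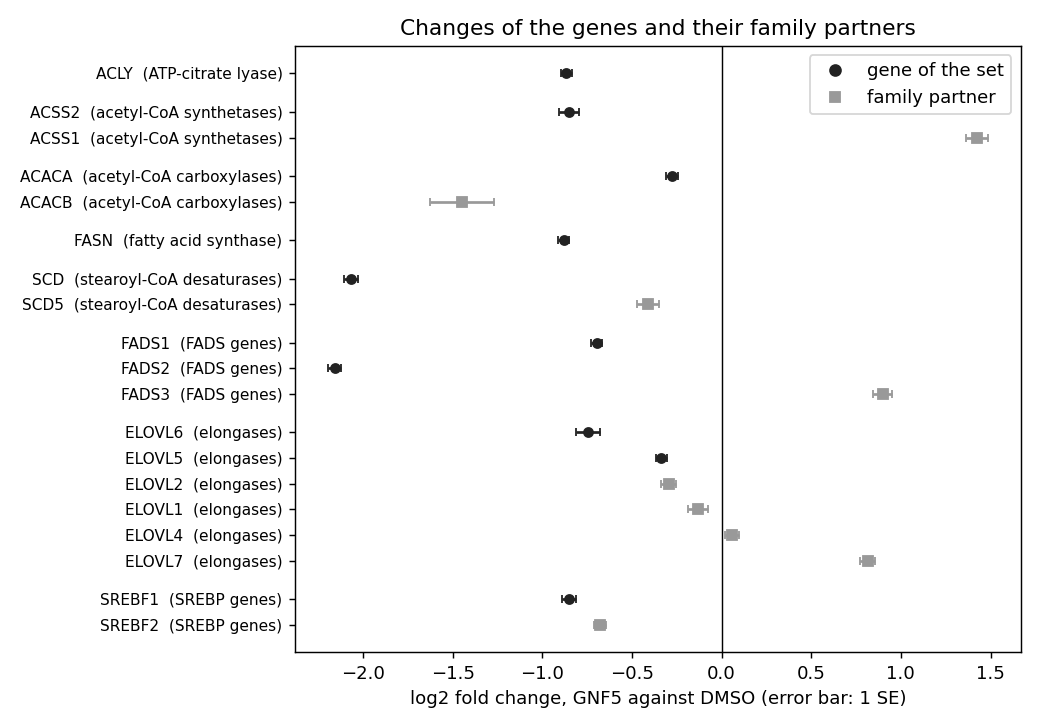
Log2 fold change of GNF5 against DMSO (horizontal axis, error bars 1 SE) for the 10 genes (black circles) and their family partners (grey squares), grouped by enzyme family. ACSS1 (1.42), FADS3 (0.90) and ELOVL7 (0.81) stand right of 0, while every black circle stands left of it, from -0.28 (ACACA) to -2.16 (FADS2).

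Neighbouring steps of lipid metabolism were read from lists chosen by function. Beside these counts, 30.7% of all tested genes were called lower and 31% higher. For the supply of acetyl-CoA and NADPH, 5 of 10 genes fell and 3 rose (median log2 fold change -0.14). The citrate carrier SLC25A1, which feeds ACLY, fell from 88.7 ± 2.03 to 43.2 ± 1.49 CPM (-1.04 ± 0.041), and PGD and MDH1 fell (-0.59 and -0.49). ACSS1 and IDH1 rose (1.42 and 0.47). ME1, the malic enzyme that gives NADPH to this route in many tissues, was near 0 (0.189 and 0.185 CPM). Among 15 tested partners and regulators of the committed steps, 4 fell and 4 rose (median -0.03), led by ACACB downward and TRIB1 upward (0.67 ± 0.075). The carbohydrate-sensing factor MLXIPL, the LXR gene NR1H2 and the AMPK subunit PRKAA1 rose (0.28, 0.27 and 0.22), and USF2 and STK11 fell (-0.22 and -0.11). NR1H3 passed narrowly (-0.19 ± 0.08) and lost its call in 8 of 13 alternatives, among them without any 1 of 5 libraries, all but DMSO replicate 1.

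Of 10 SREBP processing genes, 3 fell and 5 rose (median 0.07), beside 30.7% lower and 31% higher among all tested genes. INSIG1, which retains SREBPs and is itself a known SREBP target, fell from 384 ± 6.38 to 114 ± 9.14 CPM (-1.75 ± 0.042), and INSIG2 and SREBF2 fell (-0.96 and -0.68). The escort SCAP rose slightly (0.18 ± 0.04), and ERLIN2 and ERLIN1, scaffold proteins of the endoplasmic reticulum membrane, also rose (0.65 and 0.36). The Golgi protease MBTPS1, which makes the first cut, did not pass (-0.07 ± 0.043). MBTPS2, of the same list, rose slightly (0.13 ± 0.045, edgeR adjusted p = 0.0108).

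Of 17 other enzymes of elongation and desaturation tested, 9 fell and 4 rose (median -0.11), against the same background. The list holds 4 genes of cytochrome b5 and its reductases, which carry electrons to desaturases among other enzymes. Of these, CYB5B fell from 97.9 ± 0.57 to 52.2 ± 1.47 CPM (-0.91 ± 0.039). CYB5R3 and CYB5A also fell (-0.61 and -0.48), while CYB5R1 did not pass (-0.03 ± 0.041). CYB5B is the isoform of the outer mitochondrial membrane. TECR, the reductase that ends each elongation cycle, fell (-0.47 ± 0.039), whereas the dehydratase HACD2 rose from 59.7 ± 2.1 to 138 ± 10.1 CPM (1.21 ± 0.044). In the separate mitochondrial fatty acid synthesis pathway, 6 of 10 genes fell and 3 rose (median -0.28). LIPT2, at a low level, fell from 4.77 ± 0.409 to 1.78 ± 0.179 CPM (-1.42 ± 0.133). CBR4, MCAT and NDUFAB1 fell (-0.52, -0.39 and -0.24), and MECR and HSD17B8 rose (0.41 and 0.35). LIAS also passed (0.29 ± 0.115) but lost its call in 4 of 13 alternatives, and stood at 0.11 without GNF5 replicate 1.

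Among genes that activate fatty acids and build glycerolipids, 15 of 22 tested fell and 3 rose (median -0.21). Over all tested genes, 30.7% were called lower and 31% higher. The acyl-CoA synthetase ACSL3 fell from 165 ± 8.07 to 86.4 ± 1.86 CPM (-0.94 ± 0.038), and PNPLA3, AGPAT2 and DGAT2, which makes triglyceride, fell (-1.52, -0.64 and -0.53). GPAT3 rose from 1.22 ± 0.207 to 6.09 ± 0.699 CPM (2.32 ± 0.142) and AGPAT4 by 0.31. DGAT1 passed (0.14 ± 0.046) except without DMSO replicate 2 (0.09). For uptake, binding and storage, 8 of 19 tested fell and 8 rose (median -0.03). By at least 2-fold, 4 of them fell and 0 rose, where 6.69% of all tested genes fell that far. The fatty acid binding protein FABP7 fell from 169 ± 7.45 to 58.2 ± 0.636 CPM (-1.54 ± 0.038), and FABP5 and the triglyceride lipase PNPLA2 fell (-1.11 and -0.47). VLDLR and SLC27A2 rose (0.49 and 0.57), as did PLIN3 at a low level (0.51 ± 0.145). SLC27A1 rose too (0.57 ± 0.158), with its call lost without GNF5 replicate 1 (0.38). PLIN2, the main lipid droplet coat protein in most cells, did not pass (-0.03 ± 0.039).

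The sterol branch, which shares acetyl-CoA and SREBP control with this route, fell further. Of 20 cholesterol synthesis enzymes, 19 fell and 15 did so by at least 2-fold (median -1.44), where 2 of the 10 fatty acid genes did so. Over all tested genes, 30.7% were called lower and 6.69% lower by at least 2-fold. IDI1, ACAT2 and FDFT1 fell by 2.51, 2.06 and 1.88 on the log2 scale. SCD and FADS2 had lower log2 fold changes than the sterol median, and the other 8 genes had higher ones. The difference between these lists was not tested.

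**Figure D4:**
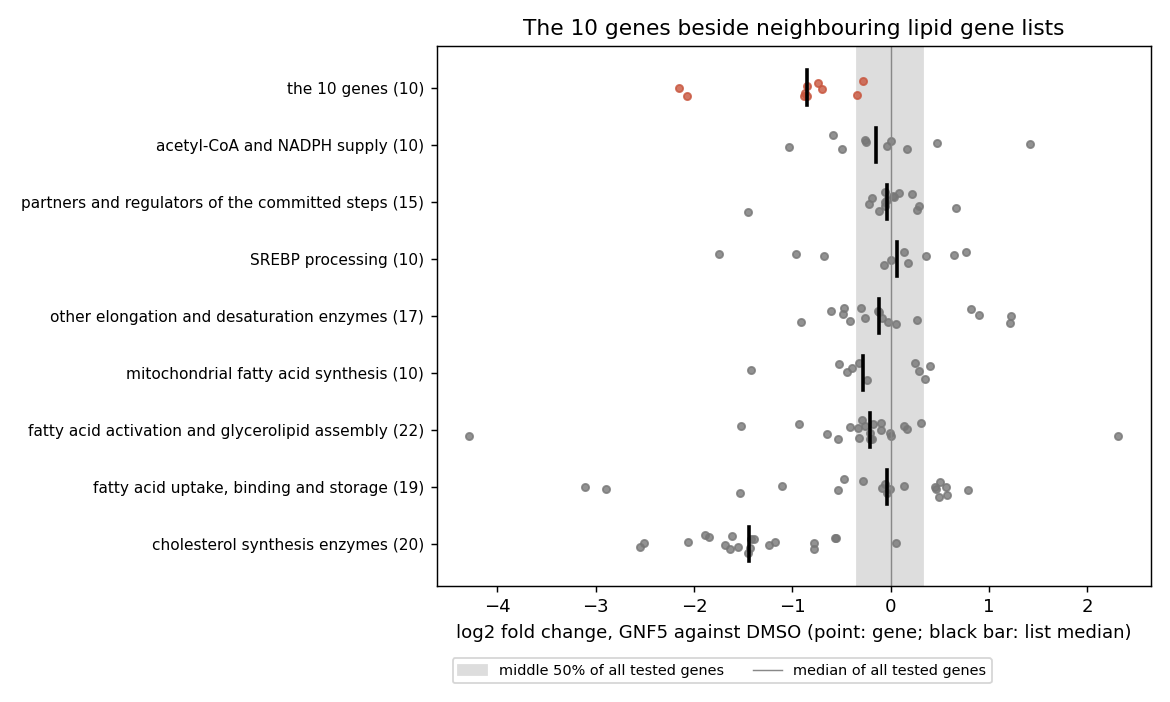
Log2 fold change of GNF5 against DMSO (horizontal axis) for the 10 genes (red) and 8 lists of neighbouring lipid genes (grey, number tested in parentheses), each point a gene and each black bar a median, with vertical jitter for display. The grey band holds the middle 50% of all tested genes, and the medians of the 10 genes (-0.85) and of cholesterol synthesis (-1.44) fall outside it, while the other 7 medians fall inside.

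The tested genes closest in pattern were found by the root mean square difference of their 6 centred log2 CPM values from those of a gene, over 13953 genes with a mean log2 CPM of at least 1. The 6 libraries share one treatment contrast, so this measure mostly reads the size of the change. Nearest to SCD were GRAP2 (0.0514), STARD4 (0.0541), ACAT2 (0.0597) and NDUFA4L2 (0.0604). Nearest to FASN were DRD2 (0.01), ACLY (0.0167), KBTBD4 (0.0205) and SREBF1 (0.0217). Nearest to SREBF1 were DHX9 (0.0105), SNRPD3 (0.0167), SKAP2 (0.0182) and ACLY (0.019). ACLY was thus among the 4 nearest of both FASN and SREBF1, and ACAT2, of the cholesterol synthesis list, among those of SCD. The nearest of each, GRAP2 for SCD, DRD2 for FASN and DHX9 for SREBF1, are in none of the lists used here.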

How the data were processed

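Raw counts of fragments per gene were deposited for 6 libraries, 3 with DMSO and 3 with GNF5, grouped and numbered by their titles. Per the file headers, the authors counted with featureCounts 1.6.1, paired and reverse-stranded, over exons summed by gene in Ensembl release 101 of GRCh38, leaving out multi-mapped and multi-overlapping reads by default. Exon lengths also came from these deposited files. GRCh37, DESeq2, HTSeq, STAR and Trim Galore also appear, without roles, in the submitters' processing notes, and for the build of the alignment these sources differ. A symbol was found for 60401 of 60671 gene IDs.

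Genes were tested with edgeR 4.0.16 (R 4.3.3): default expression filter, TMM, robust quasi-likelihood fit, no covariate, Benjamini-Hochberg adjustment over 20734 genes, threshold 0.05. The SE is the absolute log2 fold change divided by the square root of F. The labels do not say whether replicates are separate cultures; p-values then reflect only variation among these libraries, possibly technical. Replicate pairs all differed beyond sampling noise (chi-square per degree of freedom 3.02 to 8). The fit was tested on simulated data with few changed genes, in equal numbers up and down. That setting does not probe a change as broad as the one here. Ratios were compared by exact permutation (SciPy 1.17.1). Alternatives were other scalings and filters, DESeq2 1.42.0, limma 3.58.1 (voom), a replicate block and leaving out each library.

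The genes and lists were chosen with earlier results of these data known. Named list genes are up to 4 called in each direction with the lowest p-values and a mean log2 CPM of at least 1, with family partners of the 10 genes added whatever their value. A few genes taken by this rule are not reported here. ME1, MBTPS1, MBTPS2, CYB5R1 and PLIN2 were named after their values were seen. Protein sequences were not used here.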

Additional observations from a re-analysis of the deposited data

How the results depend on the processing

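Each of the 10 genes kept its direction and its call under all 13 alternatives. Log2 fold changes ran from -2.19 to -2.11 for FADS2, from -2.13 to -2.04 for SCD, from -0.91 to -0.86 for FASN and from -0.3 to -0.26 for ACACA, and the largest adjusted p among the 10 was 1.72e-06, for ACACA. FADS2 and SCD were the 2 genes at least 2-fold lower under each alternative. Over all genes, 6426 were higher and 6356 lower, with 5612 to 6420 higher and 5562 to 6733 lower under the alternatives, and every list count stayed within 1.5 times its value. The labels do not say whether the replicate numbers pair the libraries. Deviations of same-numbered libraries from their group means correlated at -0.112, -0.0256 and 0.00366. Those of differently numbered libraries correlated at -0.0589 to 0.0794. These values cannot settle whether the libraries were paired. With the replicate number as a block, 6279 genes were higher and 6196 lower, and 10 of the 10 genes were lower. Among other genes named, ELOVL1 and NR1H3 also lost their calls with the block, and ABL1 lost its call with upper-quartile factors and without DMSO replicate 1 or 3 or GNF5 replicate 3. LIAS lost its call with DESeq2 and without DMSO replicate 1 or 3 or GNF5 replicate 1. Precision is set by 3 libraries a group. In depth, 3 counts equal 0.0494 to 0.065 CPM, far below each of the 10 genes, and this limit covers counting error only. Some other named genes, among them ACACB, GPAT3, LIPT2, SLC27A1 and PLIN3, rest on a few CPM.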

Other observations

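The neighbours of FADS1 and FADS2 were read after the values of that pair were seen. Within 100 kb of their gene models 10 genes were tested, themselves included, of which 4 fell, 4 rose and 2 did not pass. On the side of the FADS2 5′ end, FEN1, the flap endonuclease of DNA replication, fell from 285 ± 6.4 to 147 ± 7.18 CPM (-0.95 ± 0.036) and TMEM258 fell by less (-0.43 ± 0.072). The myelin regulator MYRF (0.09 ± 0.077) and the endocannabinoid-forming lipase DAGLA (-0.04 ± 0.041) did not pass, and MYRF did so without GNF5 replicate 1 (0.18). On the other side, FADS3 rose (0.90 ± 0.052), RAB3IL1 rose from 2.33 ± 0.117 to 21.9 ± 1.44 CPM (3.23 ± 0.088), the anion channel gene BEST1 from 6.68 ± 0.488 to 29.7 ± 3.25 CPM (2.15 ± 0.078) and the ferritin chain FTH1 from 935 ± 18.2 to 1654 ± 96.6 CPM (0.82 ± 0.037). BEST1 and FTH1 overlap on opposite strands. MYRF and TMEM258 overlap as well. Among all tested genes 30.7% were called lower and 31% higher, and FADS1 and FADS2, 2 of the 4 that fell here, are the genes that prompted this reading.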
